A study of Mus musculus with 8 samples.

Results

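The Sp family of transcription factors was followed in the mouse olfactory bulb at postnatal day 30, in mice whose bulbs had lost Sp8 and Sp9 from one cell lineage and in their wild-type littermates. The members were taken by gene symbol, Sp1 to Sp9, and all 9 were found among the 19583 entries of the deposited expression table. The mutant mice carried hGFAP-Cre, Sp8 Flox/Flox and Sp9 Flox/Flox together, and 4 libraries came from them; 4 more came from wild-type littermates. Both groups were on 1 mixed background of C57BL/6J, 129S6 and CD1. The Cre is driven by the human GFAP promoter, which is active in the radial glia that give rise to bulb neurons and in astrocytes, so a bulb keeps cells outside that lineage with both genes intact. The labels name Cre and floxed alleles in the double mutant alone, so effects of the Cre, of each floxed allele and of each lost gene cannot be told apart. Libraries are marked by 4 letters, A and B in the double mutant and C and D in the wild type, with 2 libraries each. The labels do not say whether libraries of a letter share a mouse, and a p-value here covers the scatter among these libraries, part of which may be technical.

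Sp proteins share a zinc finger domain at the carboxyl end that binds GC-rich DNA, the GC box and the related GT box. Sp1 and Sp3 are present in nearly all cells, Sp2 is their widely expressed relative, and Sp4 is enriched in neurons. Sp5 to Sp9 are restricted in development: Sp5 is a target of Wnt signalling, Sp6 acts in teeth and skin, Sp7 (osterix) is required for bone-forming cells, and Sp8 and Sp9 act in the precursors and young interneurons that reach the bulb.

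In the mouse genome 8 of the 9 members lie in 4 pairs of neighbouring Sp genes, each pair on opposite strands with the starts facing each other. Sp7 and Sp1 lie 39.0 kb apart on chromosome 15, and Sp6 and Sp2 lie 30.4 kb apart on chromosome 11, with no other gene of the table between them. Sp9 and Sp3 lie 291 kb apart on chromosome 2 with Ola1 between them, and Sp8 and Sp4 lie 545 kb apart on chromosome 12 with D230030E09Rik between them (GENCODE M21, GRCm38). Each of the last 2 pairs joins a deleted gene to a member that was not targeted, and the 250 bases before the annotated start of these 4 genes are shown because they differ in the GC boxes that the family itself binds. The sequences come from RefSeq (GRCm38.p6), run 5′ to 3′ on the strand of the gene, and have each GC box, GGGCGG or its reverse complement CCGCCC, in capitals. Sp8 is at chr12:118846079-118846328 on the plus strand, Sp4 at chr12:118301441-118301690 on the minus strand, Sp9 at chr2:73271676-73271925 on the plus strand and Sp3 at chr2:72980447-72980696 on the minus strand.
Sp8: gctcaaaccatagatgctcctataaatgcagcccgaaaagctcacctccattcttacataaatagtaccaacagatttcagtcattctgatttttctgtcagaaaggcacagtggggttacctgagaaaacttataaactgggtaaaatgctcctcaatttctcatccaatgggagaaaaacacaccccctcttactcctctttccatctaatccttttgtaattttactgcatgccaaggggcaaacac
Sp4: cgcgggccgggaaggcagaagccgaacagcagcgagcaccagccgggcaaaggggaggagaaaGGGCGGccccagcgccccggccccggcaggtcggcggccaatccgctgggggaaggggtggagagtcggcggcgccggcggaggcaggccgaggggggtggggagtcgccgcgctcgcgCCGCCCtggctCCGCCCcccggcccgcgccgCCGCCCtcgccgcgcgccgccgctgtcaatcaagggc
Sp9: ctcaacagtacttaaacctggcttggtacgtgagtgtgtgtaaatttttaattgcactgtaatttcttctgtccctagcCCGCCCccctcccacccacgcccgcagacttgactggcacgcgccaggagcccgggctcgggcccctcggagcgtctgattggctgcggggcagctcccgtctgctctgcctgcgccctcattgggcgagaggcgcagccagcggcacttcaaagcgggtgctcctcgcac
Sp3: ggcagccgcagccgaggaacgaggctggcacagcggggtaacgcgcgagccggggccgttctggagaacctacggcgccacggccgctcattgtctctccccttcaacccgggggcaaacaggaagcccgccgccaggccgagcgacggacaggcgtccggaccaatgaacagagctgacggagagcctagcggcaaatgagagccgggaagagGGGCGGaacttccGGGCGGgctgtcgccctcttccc

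The Sp4 window held 4 GC boxes and was 80.0% G or C. The Sp3 window held 2 GC boxes at 69.2% G or C, the Sp9 window held 1 at 62.4%, and the Sp8 window held none at 40.8%. Among the 32851 windows of the same length in the table of promoters, 32.7% held at least 1 GC box on either strand, 4.09% held 4 or more, and the median window was 52.4% G or C. The GT box, GGGTGG on either strand, was found in 28.1% of all windows. It occurred 2 times before Sp4 and 1 time before Sp9. None was found before Sp8 or Sp3. Some members have further start sites: a window further inside the Sp8 gene (67.2% G or C) held 1 GC box and a window at another Sp3 start (77.2% G or C) held 5. Windows of 7 of the 9 members were available, and those of Sp6 and Sp7 were not analysed here. A match describes these letters and is not a measured binding site.

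Levels are given in FPKM, fragments per kilobase of transcript corrected for the number of mapped fragments, a unit that allows genes to be compared per length. Differences between groups were tested with limma on log2(FPKM + 0.5) across the 14349 genes that averaged 0.5 FPKM or more in the 8 libraries, with Benjamini-Hochberg adjustment over all of them and a threshold of 0.05. A log2 change is the double mutant minus the wild type on that scale, and it understates the change of low genes. The bulb differed widely: 65.3% of genes tested passed, 36.5% lower and 28.8% higher in the double mutant, and 59.1% had 4 and 4 values that did not overlap. Of the calls, 44.1% were higher with the values as deposited and 61.3% under upper quartile scaling, which moved the median log2 change of all genes from -0.04 to 0.06. The estimated depth was 11888673 to 19040796 fragments a library.

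Of the 9 members, 8 passed the filter on low values and 7 of these passed the test. Sp3, Sp4, Sp5, Sp7, Sp8 and Sp9 were lower and Sp1 was higher in the double mutant, against shares of 36.5% lower and 28.8% higher among all genes. Sp2 did not pass, and Sp6, at a mean of 0.307 FPKM, lay below the filter. The 4 double mutant values and the 4 wild-type values did not overlap for 8 of the 9 members, Sp2 being the exception, where 59.1% of all tested genes had no overlap.

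**Figure D1:**
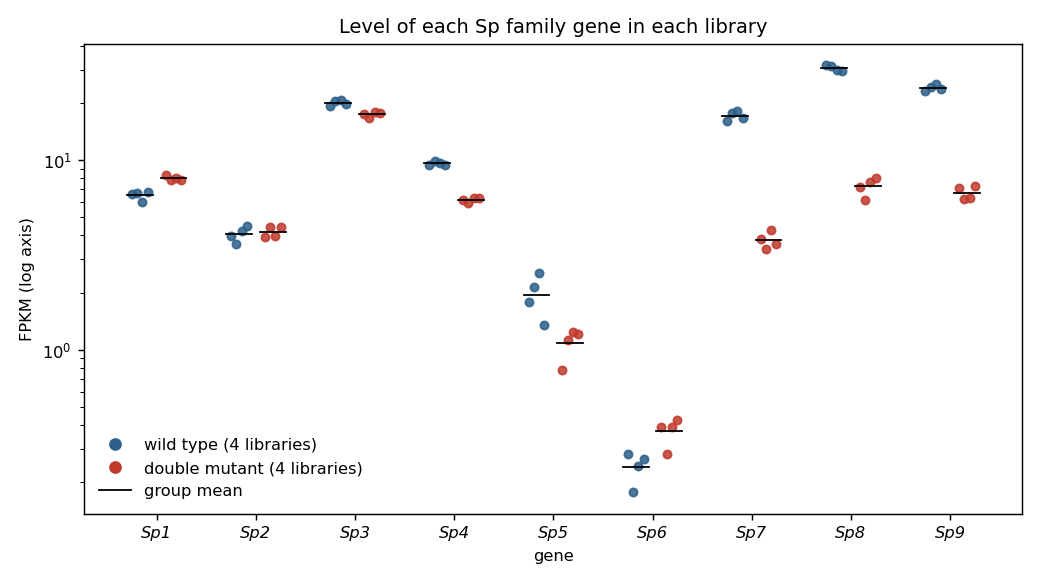
FPKM of Sp1 to Sp9 on a log axis, one point per library, with wild-type libraries in blue, double mutant libraries in red and a black line at each group mean (n = 4 per group). Sp7, Sp8 and Sp9 lie between 16.0 and 31.6 FPKM in the wild type and between 3.41 and 8.06 FPKM in the double mutant, while the points of Sp2 overlap.

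Sp8 and Sp9, the targeted genes, were the most abundant members in the wild type. Sp8 lies at 118846329 to 118852576 of chromosome 12. Its values were 31.6, 31.2, 30.0 and 29.3 FPKM in wild-type replicates 1 to 4 and 7.22, 6.15, 7.65 and 8.06 FPKM in double mutant replicates 1 to 4. Every double mutant library was below every wild-type library, and none was near 0. The double mutant mean was 23.8% of wild type, and limma gave a log2 change of -2.003 with an SE of 0.07 (n = 4 per group, adjusted p = 5.73e-09). Sp9 lies at 73271925 to 73284706 of chromosome 2. Its values were 23.1, 24.3, 25.3 and 23.7 FPKM in the wild type and 7.12, 6.24, 6.32 and 7.27 FPKM in the double mutant. This was 27.9% of wild type, a log2 change of -1.77 ± 0.06 (limma adjusted p = 3.66e-09). The estimated fragments behind these values were 1573 to 2328 for Sp8 and 713 to 1014 for Sp9 in the wild type, and 447 to 736 and 240 to 393 in the double mutant, so counting error was small beside the difference. In whole-bulb RNA, fewer cells of a type and less RNA per cell cannot be told apart, and the labels do not say which exons are floxed. Exons of Sp9 overlap those of Cir1 on the opposite strand by 270 of 5044 bases; whether the counting used strand is not given in the sources used here. Cir1 itself was at 18.2 ± 0.63 FPKM (SD, n = 4) in the wild type and 15.8 ± 0.19 FPKM in the double mutant, a change of -0.20 ± 0.04 (limma adjusted p = 0.000611).

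Sp7, known for its part in bone formation, was not targeted, and its fall was about as large as that of Sp8, a likeness that was not tested. It measured 16.0, 17.6, 18.2 and 16.7 FPKM in the wild type and 3.84, 3.41, 4.30 and 3.59 FPKM in the double mutant. The highest double mutant value was thus far below the lowest wild-type value. The mean was 22.1% of wild type, and the log2 change was -2.04 ± 0.07 (SE, 4 libraries a group, limma adjusted p = 4.71e-09). With the libraries of each letter taken apart, letters A and B were at 21.2% and 23.0% of the wild-type mean for Sp7, at 21.9% and 25.7% for Sp8 and at 27.7% and 28.2% for Sp9.

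Bone markers were low in these bulbs. Of 6 bone marker genes, 5 were in the table. Their summed level in the wild type was 3.10 to 5.94 FPKM, below the 16.0 to 18.2 FPKM of Sp7 alone. In the double mutant the sum was 2.60 to 4.49 FPKM, a range that overlapped with the 3.41 to 4.30 FPKM of Sp7. Bglap, which encodes osteocalcin, was listed at 0 in all wild-type libraries and at 0 to 0.859 FPKM in the double mutant. The osteocyte gene Sost did not exceed 0.103 FPKM in the wild type and 0.132 FPKM in the double mutant. The bone gene Ibsp measured 0.107 to 0.289 FPKM in the wild type and 0.0445 to 0.116 FPKM in the double mutant. All of these lay below the filter. The other osteocalcin gene Bglap2 measured 1.34 to 4.40 FPKM in the wild type and 1.44 to 2.49 FPKM in the double mutant, and the osteocyte gene Dmp1 1.38 to 1.84 and 0.695 to 1.74 FPKM; neither passed the test. Of 12 genes downstream of or beside Sp7 in bone, 11 were in the table and 6 were tested. The median log2 change of these 6 was 0.03, against -0.04 for all genes. It was 0.13 under upper quartile scaling, 0.06 under trimmed mean scaling and -0.00 under quantile normalization, against 0.06, -0.00 and -0.02 for all genes. Under quantile normalization 3 of the 6 were higher and 2 lower. With the values as deposited 3 were higher and 1 was lower. Runx2, the factor that acts upstream of Sp7 in bone-forming cells, fell from 6.24 ± 0.43 to 1.80 ± 0.27 FPKM (SD, n = 4), a log2 change of -1.55 ± 0.09 (limma adjusted p = 1.29e-07). The other 3 that passed moved the opposite way: Alpl, a phosphatase of mineralizing and of vessel cells, rose by 0.65 ± 0.07, the matrix gene Spp1 rose by 0.25 ± 0.04 and the collagen gene Col1a1 rose by 0.70 ± 0.08. Markers of meninges and fibroblasts, which also express Col1a1, were higher in 6 of 6 genes, against 28.8% of all genes tested. Their summed level was 2335 to 2716 FPKM in the wild type and 3993 to 4421 FPKM in the double mutant. Most of that sum was 1 gene, Ptgds, at 2263 to 2651 FPKM and 3861 to 4270 FPKM. The part of meningeal cells and fibroblasts in the rise of Alpl and Col1a1 was not tested.

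Sp1 and Sp3, the widely expressed members, moved little and in opposite directions. Sp1 measured 6.64, 6.70, 5.98 and 6.81 FPKM in the wild type and 8.33, 7.81, 8.02 and 7.83 FPKM in the double mutant. Each double mutant library was above each wild-type library, at 122% of the wild-type mean, and the log2 change was 0.27 ± 0.05 (SE, 4 libraries a group, limma adjusted p = 0.000813). Sp3 measured 19.3, 20.5, 20.6 and 19.8 FPKM in the wild type and 17.5, 16.6, 17.9 and 17.7 FPKM in the double mutant. It kept 87.1% of its wild-type level, with a log2 change of -0.19 ± 0.04 (limma adjusted p = 0.00121), which shrank to -0.09 (limma adjusted p = 0.0416) under upper quartile scaling and to -0.11 (limma adjusted p = 0.0157) under quantile normalization. Sp2 measured 3.98, 3.60, 4.21 and 4.497 FPKM in the wild type and 3.94, 4.42, 3.98 and 4.41 FPKM in the double mutant. Its groups overlapped, and the log2 change of 0.04 had a 95% interval of -0.12 to 0.20 (limma adjusted p = 0.666). A change of the size seen for Sp1 lay outside that interval, with the values as deposited and all libraries. Without letter D, Sp2 was at 0.13 ± 0.08 (SE) and Sp1 at 0.25 ± 0.06. Under upper quartile scaling they were at 0.14 ± 0.07 and 0.38 ± 0.05. No interval was computed for these fits.

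Sp4, which is enriched in neurons, fell to an intermediate level. It measured 9.41, 9.91, 9.60 and 9.43 FPKM in the wild type and 6.19, 5.92, 6.32 and 6.29 FPKM in the double mutant. The values within each group were close together, with a coefficient of variation of 2.43% in the wild type and 2.95% in the double mutant, and the groups did not overlap. Sp4 stood at 64.5% of wild type, a log2 change of -0.59 ± 0.04 (SE, 4 libraries a group, limma adjusted p = 7.28e-07). Among 15 neuronal genes reported as Sp4 targets, 11 were lower, 4 did not pass and the median log2 change was -0.11, against 36.5% lower and a median of -0.04 over all genes. The glutamate receptor genes had the larger changes: Grin1 fell from 157 ± 4.4 to 78.6 ± 2.9 FPKM (SD, n = 4), a log2 change of -0.997 ± 0.03 (limma adjusted p = 5e-09), and Gria2 had a log2 change of -0.62 ± 0.04. Cox8a, a subunit of mitochondrial cytochrome c oxidase, had a log2 change of -0.17 ± 0.04. Under upper quartile scaling 5 of the 15 were lower (Grin1, Grin2a, Grin2b, Gria2 and the sodium pump subunit Atp1b1), 3 were higher (Cox6a1, Cox6b1 and Cox7b, which were above 0 without passing as deposited), and the median was 0.00. Cox4i1, Cox5b, Cox6c, Cox7a2 and Cox7c were below 0 as deposited and above 0 under that scaling, where none of these 5 passed.

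Sp5 and Sp6 were scarce. Sp5, a target of Wnt signalling, measured 1.78, 2.14, 2.53 and 1.35 FPKM in the wild type and 0.785, 1.12, 1.24 and 1.20 FPKM in the double mutant. The lowest wild-type value exceeded the highest double mutant value by little, and the estimated fragments numbered only 20 to 44 and 13 to 32. The log2 change was -0.61 ± 0.15 (SE, 4 libraries a group, limma adjusted p = 0.00529) and the 95% interval ran from -0.95 to -0.27. Without the libraries of letter A the change was -0.48 (limma adjusted p = 0.0493). Sp6 measured 0.282, 0.177, 0.242 and 0.266 FPKM in the wild type and 0.391, 0.282, 0.390 and 0.425 FPKM in the double mutant. These values rest on 10 to 31 estimated fragments a library. The highest wild-type value, 0.282, lay only just under the lowest double mutant value, also 0.282 after rounding. Its group means differed in an exact two-sided permutation test over all 70 assignments of libraries (p = 0.0286, the smallest this design allows, not adjusted, with libraries of a letter taken as independent), and so did those of each other member except Sp2 (exact permutation p = 0.657).

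**Figure D2:**
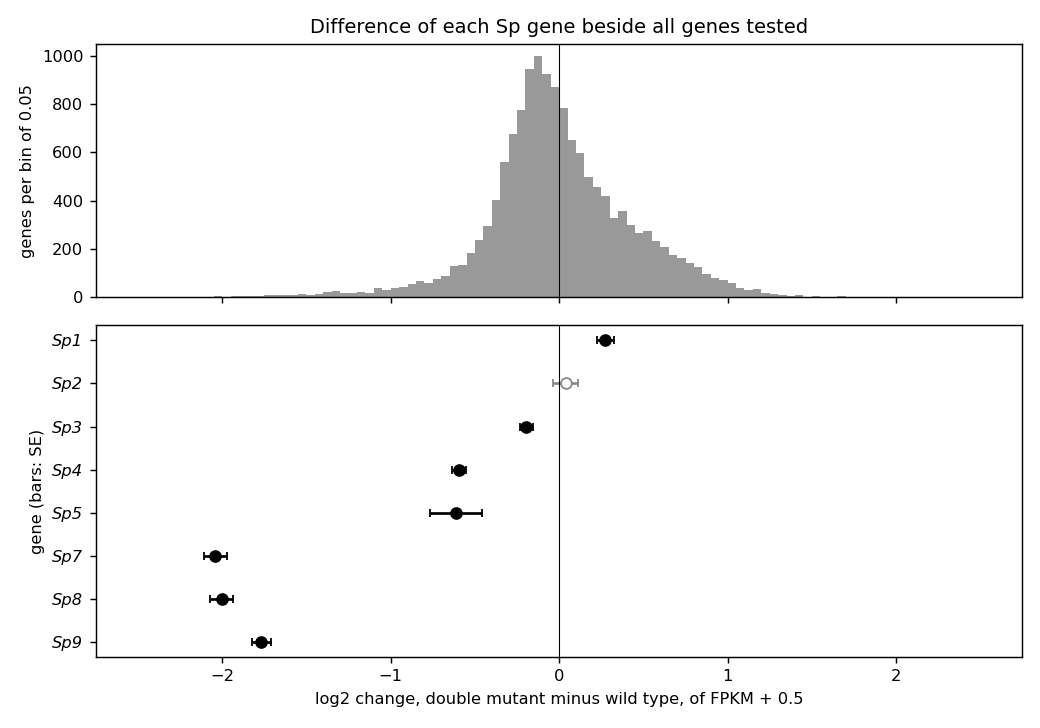
The upper panel counts all 14349 tested genes by log2 change, double mutant minus wild type, in bins of 0.05, with values beyond 2.5 drawn at 2.5. The lower panel gives the 8 tested Sp genes with their SE (n = 4 per group), filled where the limma adjusted p was below 0.05; Sp7, Sp8 and Sp9 lie at -2.04, -2.003 and -1.77, in the thin left tail of the upper panel.

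The order of the family differed between the groups. In the wild type the order from the highest mean was Sp8, Sp9, Sp3, Sp7, Sp4, Sp1, Sp2, Sp5 and Sp6, and the ranges of neighbours in that order did not overlap. In the double mutant Sp3 stood first, clear of the rest at 17.5 ± 0.59 FPKM (SD, n = 4). Sp1, Sp8, Sp9 and Sp4 followed between 7.998 and 6.18 FPKM, and each overlapped with the next. Sp4 was above Sp2 in all libraries, Sp2 and Sp7 overlapped, and Sp5 and Sp6 remained last. Sp3 therefore went from the third to the first place with a lower level, and Sp1 from the sixth to the second.

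The summed level of the 9 genes was 114 ± 2.6 FPKM in the wild type and 55.1 ± 2.2 FPKM in the double mutant (SD, n = 4), or 48.2%. Sp1 to Sp4 together went from 40.2 ± 0.64 to 35.8 ± 0.72 FPKM, 89.0% of wild type. Sp5 to Sp9 together went from 73.9 ± 2.3 to 19.3 ± 1.4 FPKM, 26.0% of wild type. As a share of the family total, Sp1 to Sp4 made up 35.2% ± 0.71 in the wild type and 65.1% ± 1.3 in the double mutant, and Sp8 with Sp9 made up 47.9% ± 0.68 and 25.4% ± 1.3. The libraries of a group were close to one another in these shares, and the groups did not overlap (exact permutation p = 0.0286 for each of these sums and shares, the smallest possible). Such shares add up to a fixed total, so a smaller share of some members raises that of the others.

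**Figure D3:**
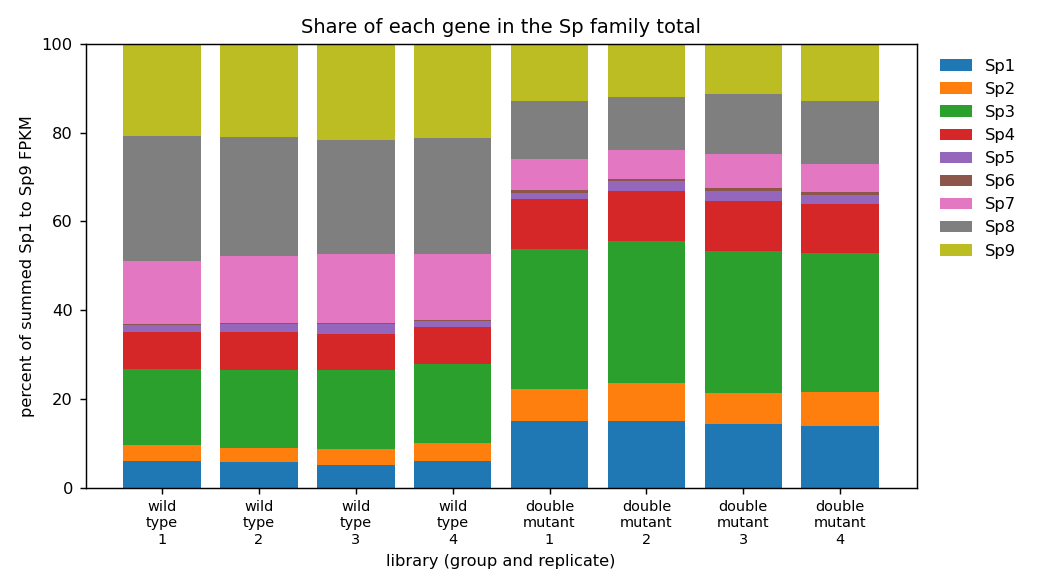
Stacked bars give the percent of the summed Sp1 to Sp9 FPKM that each gene contributed in each library, wild type on the left and double mutant on the right. Sp1 to Sp4 fill 34.6% to 36.3% of the bar in the wild-type libraries and 63.8% to 66.9% in the double mutant libraries.

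The ratio of a pair of members within a library does not depend on how libraries were scaled, and 6 pairs were compared by exact two-sided permutation tests with adjustment over the 6. Members of a genomic pair changed unequally in 3 of the 4 pairs. Sp7 over Sp1 was 2.41 to 3.04 in the wild type and 0.437 to 0.536 in the double mutant, a log2 difference of -2.47 ± 0.10 (SE). Sp9 over Sp3 was 1.19 to 1.23 and 0.352 to 0.410, a difference of -1.64 ± 0.05, and Sp8 over Sp4 was 3.11 to 3.36 and 1.04 to 1.28, a difference of -1.44 ± 0.07. In each of these pairs the first member was the more abundant one in the wild type, and Sp7 and Sp9 became the less abundant. Sp4 over Sp3, the neuronal over the general member, was 0.465 to 0.488 and 0.352 to 0.357, a difference of -0.43 ± 0.02. These 4 ratios passed (exact permutation p = 0.0286, adjusted p = 0.0429, lower in 4 of 4 double mutant libraries). Sp9 over Sp3 and Sp8 over Sp4 each hold a targeted gene, so their fall could be foreseen from the design. Since 0.0286 is the smallest p this design allows, the adjusted p of each ratio also depends on how many of the 6 reach it. Sp7 over Sp1 and Sp4 over Sp3 were not adjusted apart from the pairs with a targeted gene. Sp6 over Sp2 differed by 0.58 ± 0.19 and Sp8 over Sp9 by -0.23 ± 0.08, and neither passed (exact permutation adjusted p = 0.0571). For Sp8 over Sp9 the range was 1.19 to 1.36 in the wild type and 0.985 to 1.21 in the double mutant. That ratio passed with the scaled fragment signal plus a pseudocount of 10 in place of FPKM (-0.25, exact permutation adjusted p = 0.0343). The FPKM ratio had no pseudocount, and the scaled signal was not tested without one. The call thus depends on the processing, and the parts of column and pseudocount were not told apart. With the 2 letters of a group as units an exact test cannot go below p = 0.333. The letter means of each of the 6 ratios did not overlap between the groups, which also holds for the 2 that did not pass.

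Genes next to the members were compared with the background of 36.5% lower and 28.8% higher over all genes. Dnah11, a dynein gene of motile cilia 35889 bases beyond Sp4, fell from 3.93 ± 0.40 to 0.947 ± 0.12 FPKM (SD, n = 4), a log2 change of -1.61 ± 0.09 (limma adjusted p = 1.32e-07). Within 1 Mb of Sp8, all 3 genes tested were lower: Dnah11, Sp4 and Itgb8, an integrin subunit, at -0.69 (limma adjusted p = 4.32e-06). Within 1 Mb of Sp4, 5 of 5 were lower, Sp8 included. These windows hold few genes and share several of them, so the counts describe these loci alone. Of 11 genes within 1 Mb of Sp9, 4 were higher and 5 lower. Its neighbour Ola1 had a log2 change of -0.21 ± 0.04, and further off Cdca7 rose by 0.59 (limma adjusted p = 3.19e-05) and Wipf1 by 0.49 (limma adjusted p = 4.14e-05). Around Sp7, 10 of 29 genes were higher and 9 lower, shares near the background. The nuclear pore gene Aaas, 5834 bases away, had a change of 0.24 ± 0.08 (limma adjusted p = 0.0299) with overlapping groups. The lowest change within 1 Mb of Sp7 was -0.66, for the keratin gene Krt77, while Sp7 itself was at -2.04. Abcb5, 15247 bases beyond Sp8, did not exceed 0.0256 FPKM in any library. Scrn2, 5203 bases from Sp6, rose by 0.53 ± 0.10 (limma adjusted p = 0.000895). Next to Sp3, 6430710C18Rik rose by 0.68 ± 0.16 (limma adjusted p = 0.00373), and next to Sp2, D030028A08Rik did not pass at 0.17 ± 0.15 (limma adjusted p = 0.343). The other nearest genes, Amhr2 by Sp1, Myo3b and Erich2 by Sp5, and D230030E09Rik, lay below the filter.

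**Figure D4:**
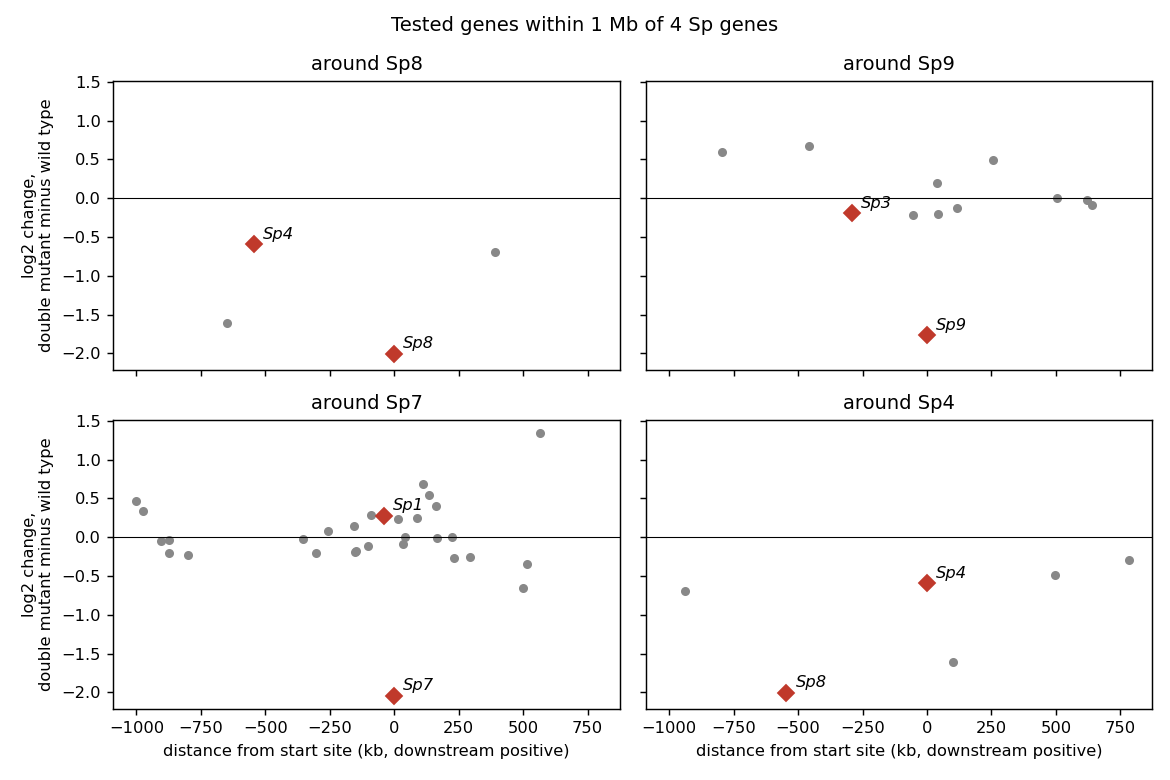
Each point is a tested gene within 1 Mb of Sp8, Sp9, Sp7 or Sp4, placed by the distance of its start site in kb along the direction of transcription of that member and by its log2 change, double mutant minus wild type; red diamonds are Sp genes. All genes around Sp8 and Sp4 lie below 0, while those around Sp9 and Sp7 lie on both sides.

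The genes most like a member were found by the root mean square difference between log2 profiles over the 8 libraries, each profile taken relative to its own wild-type mean, among 12508 genes. Since the profile is mainly the difference between the groups, likeness means a similar change. The closest genes to Sp8 were the potassium channel gene Kcnf1 (difference 0.0907), Frmd7 (0.106), the enkephalin precursor Penk (0.112), Sp7 (0.112) and the activity-regulated gene Arc (0.113). For Sp7 they were Penk (0.1002), Sp8 (0.112), Egr3 (0.116), Adamts19 (0.131) and Kcnf1 (0.142). Sp7 and Sp8 were thus each among the 5 nearest of the other, while the difference between Sp8 and Sp9 was 0.190. The closest genes to Sp9 were the serotonin receptor gene Htr1f (0.0641), Ablim3, Klhl40, the neuroblast gene Dcx (0.0823) and the homeobox gene Meis2 (0.0846). Those closest to Sp4 were the receptor gene Acvr1 (0.0197), Ccdc88a, Dennd6b, the neuronal enolase Eno2 and the transcription factor gene Tcf4 (0.0287).

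Genes that work with or beside Sp proteins were described from lists, by count and median, beside the 36.5% lower and 28.8% higher and the median of -0.04 of all genes. Of 15 tested cofactors and partners of Sp proteins, 11 were lower, 4 did not pass and the median log2 change was -0.31. Ogt, which attaches the sugar N-acetylglucosamine to Sp1 and many other proteins, fell from 118 ± 2.4 to 81.4 ± 1.7 FPKM (SD, n = 4), a change of -0.53 ± 0.03 (limma adjusted p = 8.19e-08). The histone deacetylase gene Hdac2 had a change of -0.51 ± 0.05 (limma adjusted p = 3.99e-06). The related Kruppel-like factors went both ways: of 14 tested, 5 were higher, 6 lower and 3 did not pass, with a median of -0.00. Klf16 fell from 21.2 ± 1.1 to 7.57 ± 0.70 FPKM and Klf3 rose from 11.6 ± 0.44 to 20.5 ± 0.80 FPKM, with changes of -1.43 ± 0.06 and 0.80 ± 0.04 (limma adjusted p = 2.62e-08 and 8.28e-08). Klf9, the most abundant of them, had a change of -0.47 ± 0.05.

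Other factors that bind GC-rich DNA were lower in 9 of 10 tested genes, with a median of -0.54 (7 of 10 under upper quartile scaling). Egr1 and Egr3, which respond to neuronal activity, had log2 changes of -1.62 ± 0.05 and -2.02 ± 0.08 (limma adjusted p = 2.87e-09 and 9.05e-09), Egr3 from 51.6 ± 6.2 to 12.3 ± 0.62 FPKM. Among 14 transcription factors of bulb interneurons, 9 were lower and 3 higher. Meis2 and Dlx5, homeobox genes of the interneuron lineage, had changes of -1.73 ± 0.05 and -1.37 ± 0.04. Gsx2, a homeobox gene of progenitors, rose from 0.103 ± 0.057 to 1.10 ± 0.10 FPKM, and Prox1, a homeobox gene of early neuronal differentiation, rose from 0.768 ± 0.11 to 2.38 ± 0.11 FPKM (SD, n = 4).

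Markers of the cell types of the bulb were counted in the same way, beside the 36.5% lower and 28.8% higher of all genes. Interneuron markers were lower in 7 of 8 genes, with a summed level of 1542 to 1577 FPKM in the wild type and 748 to 822 FPKM in the double mutant. Neuroblast markers were lower in 5 of 6, at 465 to 497 and 329 to 367 FPKM. Most of the neuroblast sum was Tubb3, at 295 to 328 and 254 to 288 FPKM. The log2 changes of these 6 ran from -1.71 for Dcx to 0.04 for Sox11, with Tubb3 at -0.17. Under upper quartile scaling 4 of the 6 were lower and 1 was higher. Mitral and tufted cell markers were higher in 7 of 7 genes (547 to 584 and 817 to 887 FPKM), astrocyte markers in 8 of 8 (904 to 1003 and 1353 to 1398 FPKM) and endothelial and mural markers in 7 of 7 (192 to 200 and 338 to 378 FPKM). Microglial markers were higher in 5 of 7 genes, ensheathing cell markers in 5 of 6 and sensory neuron markers in 5 of 7. Oligodendrocyte markers went both ways: of 6, 2 were higher, 1 was lower and 3 did not pass, with a median log2 change of 0.02. The lower gene was Mobp, at -0.32 (limma adjusted p = 0.0100). No marker of these lists was at 0 in all libraries, in either the bulb's own cell types or the tissue around it. No set of markers was tested for its part in the level of any Sp gene.

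The Sp levels were therefore also set against the summed interneuron markers of the same library, an alternative chosen after the data were seen. On that scale Sp7, Sp8 and Sp9 were at 43.4%, 46.7% and 54.9% of wild type, and the 4 and 4 values did not overlap. Sp4 was at 127%, Sp3 at 171% and Sp1 at 241%, all without overlap (exact permutation p = 0.0286 for each, not adjusted), while Sp5 was at 111% with overlap (exact permutation p = 0.543). The marker sum itself fell from 1542 to 1577 FPKM to 748 to 822 FPKM, so a gene of unchanged FPKM rises on this scale. Sp2, whose FPKM did not pass the test, was at 203% without overlap (exact permutation p = 0.0286). These p-values therefore include the fall of the markers and do not show a rise of Sp1, Sp3 or Sp4. The interneuron genes did not fall equally, so the choice among them matters. Relative to single interneuron genes, the log2 difference of Sp8 ran from -2.02 against Th to -0.04 against Penk, that of Sp7 from -2.12 to -0.14, and that of Sp9 from -1.78 to 0.20 with the same genes at the ends. Sp7 and Sp8 were lower against all 8 interneuron genes and Sp9 against 7 of 8. Sp4 was lower against 2 of 8 and higher against 6 of 8, and Sp1 and Sp2 were higher against all 8.

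**Figure D5:**
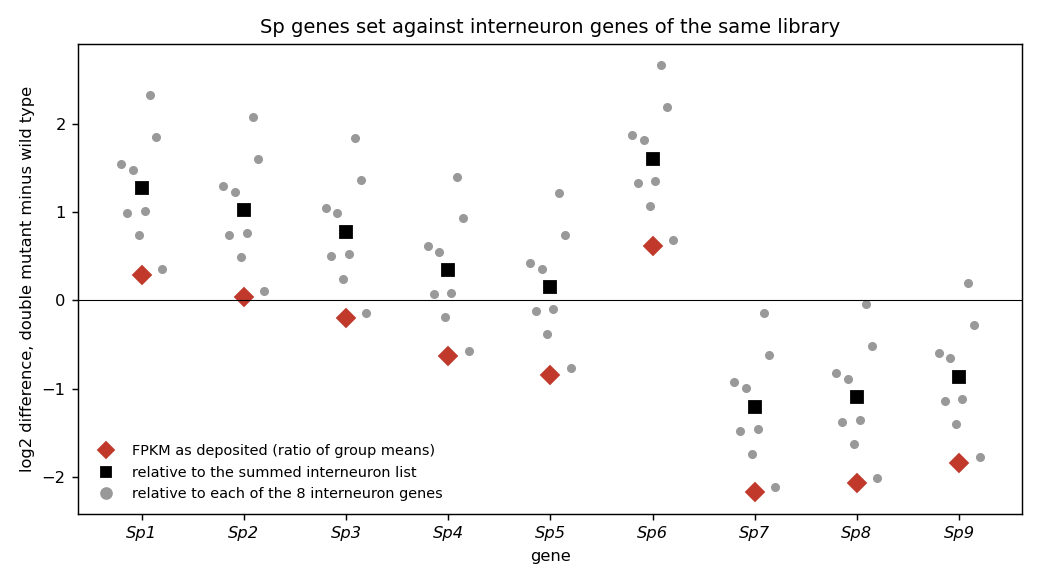
For each Sp gene, the log2 difference between double mutant and wild type is drawn for FPKM as deposited (red diamonds, ratio of group means), relative to the summed interneuron list (black squares) and relative to each of its 8 genes (grey points). Sp7, Sp8 and Sp9 are at -1.20, -1.10 and -0.86 on the black squares, and Sp4 moves from below 0 to 0.34.

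The deposited table also held a scaled fragment signal for each gene, and its ratio to FPKM follows the transcript length that the FPKM calculation used. That ratio was compared over 13378 genes, of which 0.112% passed (15 genes). Of 7 members tested, none passed by limma, and with all libraries none reached an unadjusted p under 0.05. Without double mutant replicate 1, Sp2 did (limma unadjusted p = 0.0351). Without double mutant replicate 2, Sp3 and Sp8 did (limma unadjusted p = 0.0458 and 0.0278). None of these passed after adjustment. With all libraries the log2 differences ran from -0.02 for Sp9 to 0.01 for Sp2, and that of Sp8 was -0.01 ± 0.01 (SE, limma adjusted p = 0.749). No shift in the length that the FPKM calculation used for Sp8 or Sp9 thus passed the test. Whether exons were missing from their RNA was not tested.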

How the data were processed

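RNA sequencing of total RNA from olfactory bulbs at postnatal day 30 gave 8 libraries, 4 per group by the labels. TopHat and Cufflinks 2.1.1 with build GRCm38.p4 are named in the submitters' processing notes. The authors deposited FPKM per gene and library, and these values were used for all levels. A scaled fragment signal per gene was also deposited by the authors under headings that say count. It was used for depth, for the estimated fragments of a gene, for its ratio to FPKM and as an alternative to FPKM. Its values are multiples of a step that differs between libraries (98.4% to 98.7% of values below 1000 steps whole within 0.02 of a step). Estimated depth was 11888673 to 19040796 fragments a library, and Sp5 and Sp6 rest on 10 to 44 fragments.

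Differences were fitted with limma 3.58.1 in R 4.3.3 on log2(FPKM + 0.5), with the prior variance following the mean, over 14349 genes averaging 0.5 FPKM or more, adjusted by Benjamini-Hochberg. The script was tested on simulated data. Single members and ratios of members were compared by exact two-sided permutation tests over 70 assignments. The signal per FPKM was centred on the library median, over genes with at least 20 units in every library. Positions are from GENCODE M21, where all 9 members and 18342 table symbols were matched. Alternatives were 2 pseudocounts, 2 filters, 3 scalings, the replicate block, letter means, the scaled columns, leaving out each library or letter, and levels relative to interneuron genes.

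Named genes were all members, the nearest table gene on each side, the 5 genes most like Sp4, Sp7, Sp8 and Sp9, and from each list the 2 with the smallest p and the most abundant; further names were chosen after their values were seen, and a list member left unnamed is not reported here. The members and lists were chosen with earlier results of these data known. Libraries of 1 letter differed by 1.18 to 1.44 times sampling noise and libraries of different letters in a group by 1.56 to 2.35 times (median chi-square over genes). Libraries of a letter were thus closer to each other in every case, yet above sampling noise, and were used as separate libraries; a shared source would make the p-values too small, and letter means were fitted as an alternative.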

Additional observations from a re-analysis of the deposited data

Results flagged for a closer look

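Among 30 checks for a library far from the other 3 of its group, of which chance marks about 1 in 20, 2 stood out, and both concern ratios of neighbouring genes. In the double mutant, the log2 ratio of Sp6 to Sp2 was -3.97 in replicate 2 and -3.33 to -3.38 in the other 3, so the gap made up 0.932 of the range; Sp6 had 16 estimated fragments in replicate 2. In the wild type, the log2 ratio of Sp8 to Sp4 was 1.75 in replicate 1 and 1.64 to 1.66 in the other 3, a gap of 0.836 of the range. Without wild-type replicate 1 the difference in Sp8 over Sp4 between the groups was -1.42, and without double mutant replicate 2 the difference in Sp6 over Sp2 was 0.74.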

How the results depend on the processing

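The number of members past the test was 7 and lay between 6 and 8 over 22 alternatives (6 with a filter at a mean of 2 FPKM, where Sp5 was not tested, and 8 with no filter, where Sp6 was called higher). Sp1, Sp3, Sp4, Sp7, Sp8 and Sp9 kept their direction and call in all 22 and Sp5 in the 21 that tested it, with the highest limma adjusted p at 0.0493 for Sp5 and 0.0416 for Sp3. Sp2 passed in none; its log2 change of 0.04 was -0.0198 under quantile normalization and -0.0505 without letter C, and ran from -0.0127 to 0.0819 with each library left out. Relative to the summed interneuron markers, chosen after the data were seen, the differences of Sp3, Sp4 and Sp5 turned to 0.78, 0.34 and 0.15. The markers themselves fell, and on that scale Sp2 stood at 1.02. The same replicate numbers did not pair the libraries (correlation of deviations -0.05 to 0.01); with the replicate block 7 members and 9189 of 14349 genes passed, against 9364. Of the pair ratios 4 passed, and 5 with the scaled columns plus a pseudocount of 10, where Sp8 over Sp9 passed at -0.25 (exact permutation adjusted p = 0.0343). Sp6 over Sp2 was 0.58 and 0.11 with a pseudocount of 1. Scaling by 1 factor a library and filters cannot change a ratio within a library; quantile normalization and the block were not run for the ratios, nor edgeR on recovered fragments, and letter means allow no exact p below 0.333. With 1 library left out, ratios were given as values without a test. The length comparison called 0 members in all 9 alternatives. Depth limits Sp5 and Sp6.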
